A study of Homo sapiens with 16 samples.

Results

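The HOX genes were taken as every gene symbol in the count tables made of HOX, a cluster letter from A to D and a number. The rule found 39 of 28278 symbols, 11 in HOXA, 10 in HOXB, 9 in HOXC and 9 in HOXD. They were followed in 16 RNA-seq libraries from SKMEL28 and A375, a pair of established BRAF-mutant human melanoma lines, to see which HOX genes were transcribed in each line and which moved when MITF or TFE3 was edited. SKMEL28 gave 1 wild-type library (replicate 4), 3 libraries labelled MITFKO, and 3 from clone 3 and 3 from clone 13 labelled with both MITFKO and TFE3KO, called DKO here. The MITFKO cells are the D2 line. The DKO clones carry the MITFKO edit together with a CRISPR-Cas9 edit of TFE3, so the MITFKO libraries are their control. A375 gave 3 wild-type and 3 TFE3KO libraries, and its MITF was not edited. Each DKO clone is 1 clone, and whether the A375 TFE3KO cells are 1 clone or a pool is not given in the sources used here. Replicates were separate flasks, so the p-values measure the spread between flasks and not between independently edited clones. The SKMEL28 medium was RPMI and the A375 medium DMEM, refreshed in all groups before harvest, so line and medium cannot be told apart.

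HOX genes encode homeodomain transcription factors that give cells along the body axis their positional identity. They sit in 4 clusters, on chromosomes 7 (HOXA), 17 (HOXB), 12 (HOXC) and 2 (HOXD), and are numbered by their order in the cluster: low-numbered genes are used near the head, middle-numbered genes in the trunk and high-numbered genes toward the tail and the ends of the limbs. Polycomb complexes keep unused HOX genes silent, Trithorax (MLL) complexes keep used ones active, and HOX proteins bind DNA together with TALE cofactors of the PBX, MEIS and PKNOX families. Adult skin cells keep the HOX code of their body site, and cultured melanoma lines commonly transcribe many HOX genes.

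MITF and TFE3 bind the E-box CACGTG, so the promoter windows of HOX genes, 250 bases before to 50 after a start, were searched for it and for related letters. These windows of 300 bases, from RefSeq on GRCh38.p14, matched 20 of the 39 genes, as 27 windows of which 26 differed in sequence. The other 19 genes had no window and could not be searched, among them HOXA5, HOXB2, HOXB8, HOXB9, HOXC8 and HOXD9. Of HOXB only HOXB1 had a window, and of HOXC only HOXC4 and HOXC5. CACGTG was found in 9 of the 27 HOX windows (33.3%), against 7.26% of all 35116 windows. The longer TCACGTGA, which contains CACGTG, was found in 1 HOX window (3.7%, against 0.98%), that of HOXD11. TCATGTG, searched on both strands, was found in 7 (25.9%, against 2.92%), where the single window that HOXC4 and HOXC5 share counts for each gene. TGATNNAT, which a HOX and PBX pair can bind and which was also searched on both strands, was found in 3 (11.1%, against 7.4%). HOX windows lie together in clusters, and a match is only a run of letters. Their median GC content was 58%, against 58.7% over all windows. Their median ratio of observed to expected CG pairs was 0.849, against 0.579, and its part in the matches was not tested. The windows with CACGTG belonged to HOXA3 (1 of its 7 windows), HOXA4, HOXA7, HOXA9, HOXD1, HOXD3, HOXD10, HOXD11 and HOXD13. Those of the 4 genes among them that have a single window and a call in at least 1 SKMEL28 comparison are shown 5′ to 3′ on the strand of the gene, with the match in capitals:
HOXA4: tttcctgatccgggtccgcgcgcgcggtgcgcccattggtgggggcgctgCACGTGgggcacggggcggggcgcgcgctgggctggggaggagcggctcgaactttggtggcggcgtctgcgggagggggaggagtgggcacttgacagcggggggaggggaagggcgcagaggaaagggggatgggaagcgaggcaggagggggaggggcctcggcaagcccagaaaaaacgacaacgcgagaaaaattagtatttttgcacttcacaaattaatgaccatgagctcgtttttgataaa
HOXD1: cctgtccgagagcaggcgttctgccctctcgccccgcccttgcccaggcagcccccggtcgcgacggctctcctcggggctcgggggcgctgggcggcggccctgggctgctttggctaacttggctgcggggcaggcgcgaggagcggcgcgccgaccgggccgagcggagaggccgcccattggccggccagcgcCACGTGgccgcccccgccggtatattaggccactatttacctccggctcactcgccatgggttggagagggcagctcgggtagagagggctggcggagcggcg
HOXD3: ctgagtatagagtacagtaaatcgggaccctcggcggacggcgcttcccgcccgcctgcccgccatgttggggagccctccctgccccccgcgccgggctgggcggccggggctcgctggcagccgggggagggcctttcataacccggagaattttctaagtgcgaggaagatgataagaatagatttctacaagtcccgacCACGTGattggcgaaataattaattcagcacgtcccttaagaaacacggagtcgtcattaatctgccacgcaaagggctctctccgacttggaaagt
HOXD13: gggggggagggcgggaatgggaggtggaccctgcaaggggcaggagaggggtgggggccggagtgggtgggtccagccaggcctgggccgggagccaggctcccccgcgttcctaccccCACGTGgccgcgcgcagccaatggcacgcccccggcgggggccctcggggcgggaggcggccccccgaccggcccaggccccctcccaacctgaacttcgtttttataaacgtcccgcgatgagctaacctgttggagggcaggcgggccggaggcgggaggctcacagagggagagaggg

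On GRCh38.p14 the HOXA4 window is chr7:27130708-27131007 on the minus strand, and its match starts at base 51 of the window. The HOXD1 window is chr2:176188418-176188717 on the plus strand, with the match at base 198. The HOXD3 window is chr2:176157057-176157356 on the plus strand, with the match at base 204. The HOXD13 window is chr2:176092471-176092770 on the plus strand, with the match at base 120. The counts were made on hg19, so these positions are not those of the count tables. Of the other genes with CACGTG, HOXA7, HOXA9, HOXD10 and HOXD11 had means below 1 CPM in every group. The windows shown were picked by calls, and a link of the match to editing was not tested. HOXC4 and HOXC5 share 1 listed start, at chr12:54016638-54016937 on the plus strand, and the window is shown because these genes with the same listed start differed in SKMEL28 (below 1 CPM for HOXC5 and above 12 CPM for HOXC4 in all 10 libraries). Its capitals mark TCATGTG:
HOXC4 and HOXC5: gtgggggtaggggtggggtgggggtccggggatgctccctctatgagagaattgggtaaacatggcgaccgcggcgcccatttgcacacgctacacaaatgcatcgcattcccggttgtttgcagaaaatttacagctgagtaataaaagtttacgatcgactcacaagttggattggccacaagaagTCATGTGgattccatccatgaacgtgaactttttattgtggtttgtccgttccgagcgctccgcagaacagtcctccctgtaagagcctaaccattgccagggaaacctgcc

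The libraries held 17320855 to 31269126 counts over genes, and levels are given as counts relative to library size after TMM scaling (CPM). TFE3 measured 46.2 CPM in SKMEL28 wild type, 71.7, 74.3 and 79.2 in MITFKO, 8.38, 8.74 and 11.7 in DKO clone 3 and 43.4, 47.6 and 49.6 in DKO clone 13. In A375 it measured 119.7, 114 and 125 CPM in wild type and 11.6, 12.2 and 10.9 in TFE3KO. Clone 3 and A375 TFE3KO were far below their controls, whereas clone 13 was below MITFKO and around the wild-type value. MITF measured 554 CPM in wild type, 538, 513 and 478 in MITFKO, 836, 796 and 772 in clone 3 and 858, 959 and 855 in clone 13, so the transcript level did not check the MITFKO label. A375 had 38.9, 34.2 and 30.9 CPM of MITF in wild type and 18.2, 18.6 and 17.1 in TFE3KO. Of 8 melanocyte markers, 7 stood at 1 CPM or more in SKMEL28 wild type, all but TYRP1. In A375 wild type only 3 did, with TYR, DCT, PMEL, MLANA and TYRP1 below 1 CPM. The file header of the SKMEL28 wild-type library names another alignment input than those of the other SKMEL28 libraries, and this cannot be told apart from genotype. Replicates 2 of both DKO clones deviated together from their groups (correlation of deviations 0.365 across 10825 genes), and some results are given without them as well.

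**Figure D1:**
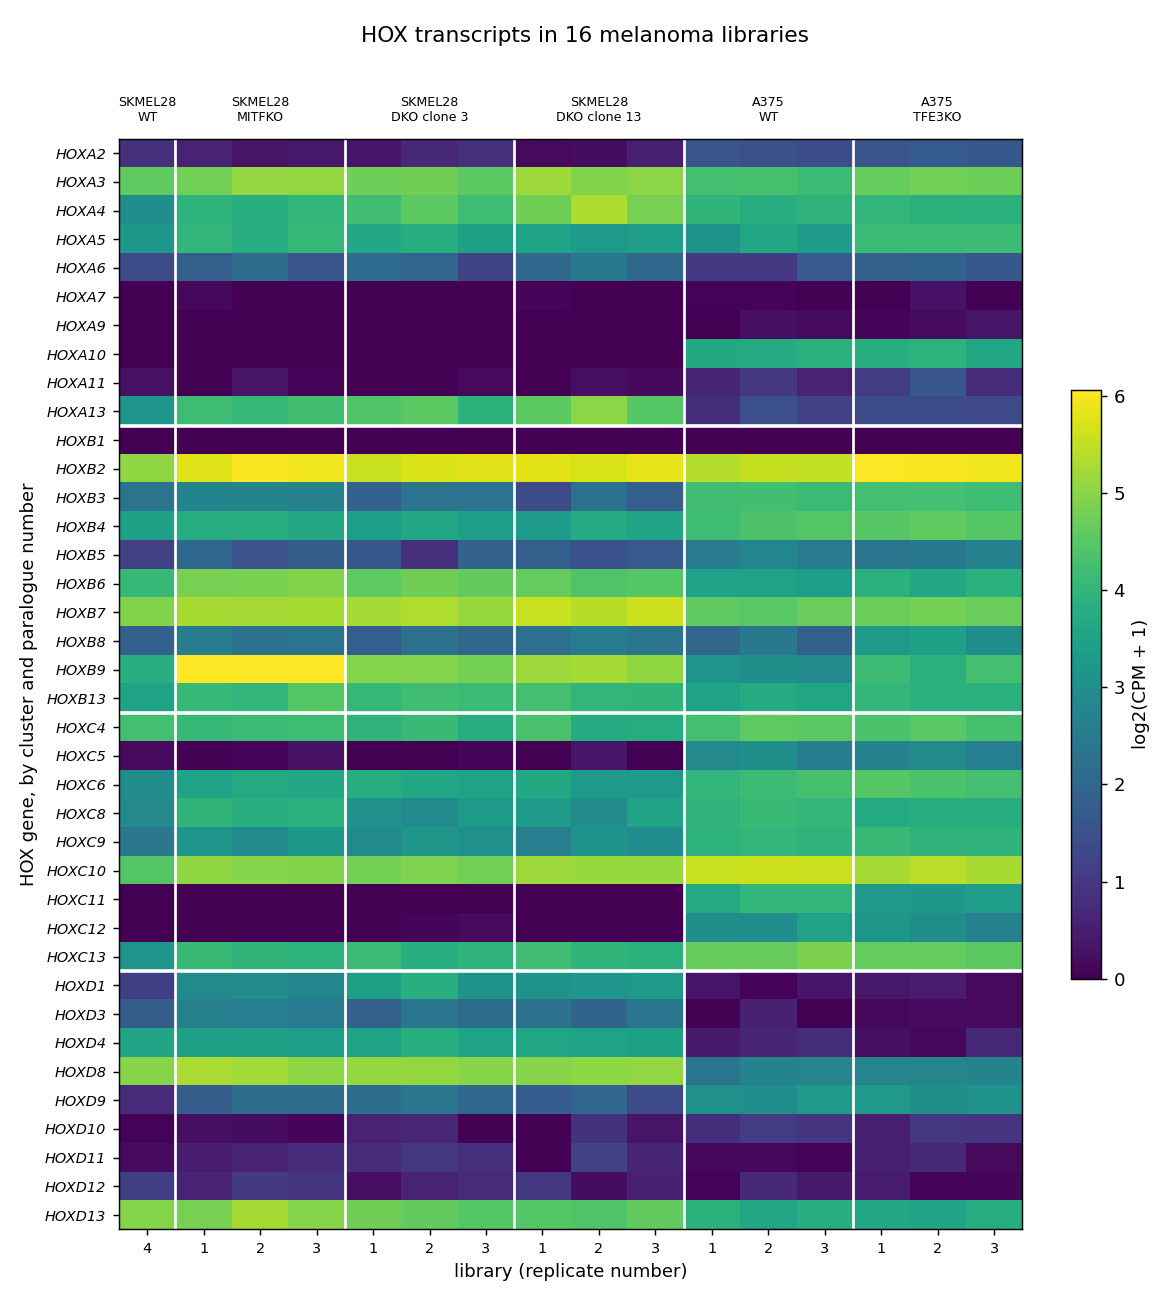
Level of the HOX genes (rows, grouped by cluster) in each of the 16 libraries (columns, grouped by genotype) as log2(CPM + 1), with brighter colours for higher levels. HOXA7, HOXA9 and HOXB1 are dark in every library, HOXA10, HOXC11 and HOXC12 are bright only in the 6 A375 libraries, and HOXD1, HOXD3 and HOXD4 are bright only in the 10 SKMEL28 libraries.

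A gene was counted as on in a group where its mean was at least 1 CPM. In each SKMEL28 group 27 of 39 HOX genes were on, 6 of 11 in HOXA, 9 of 10 in HOXB, 6 of 9 in HOXC and 6 of 9 in HOXD. In A375 wild type 29 were on and in A375 TFE3KO 30, with 8 and 9 in HOXA, and with 9 of 10 HOXB, 9 of 9 HOXC and 3 of 9 HOXD genes on in both groups. Over all 28278 symbols, 44.1% were on in SKMEL28 wild type, 44.2% in MITFKO, 43.9% in DKO clone 3, 43.8% in DKO clone 13, 44.9% in A375 wild type and 45.1% in A375 TFE3KO. A set of 23 HOX genes was on in all 6 groups, 34 were on in at least 1, and 5 (HOXA7, HOXA9, HOXB1, HOXD10 and HOXD11) were on in none. Across the 5 that were never on, the highest library held 1.28 CPM, of HOXD11 in replicate 2 of DKO clone 13, and HOXB1, a hindbrain gene, was at 0 in all 16 libraries.

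Both lines had most of HOXB on and differed in the other clusters. The genes on only in SKMEL28 were HOXD1, HOXD3, HOXD4 and HOXD12, and the genes on only in A375 were HOXA2, HOXA10, HOXA11, HOXC5, HOXC11 and HOXC12. In SKMEL28 the run from HOXA7 to HOXA11 was off while the last gene of the cluster, HOXA13, was on, and HOXC11 and HOXC12 were off while HOXC13 was on. The threshold split a few genes narrowly. In SKMEL28 wild type HOXD1 and HOXD12, both at 1.18 CPM, lay just inside, and HOXA2 at 0.759 and HOXD9 at 0.674 CPM lay just outside. In A375 wild type HOXA13 at a mean of 1.27 CPM was just inside, and HOXD10 at 0.911 and HOXA11 at 0.694 just outside.

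The group means of 3 genes lay on different sides of that threshold in edited and control groups. HOXD9, a posterior gene used in spine and limb, measured 0.674 CPM in SKMEL28 wild type, 2.45, 3.52 and 3.51 in MITFKO, 3.58, 4.32 and 3.12 in clone 3 and 2.42, 3.00 and 1.57 in clone 13, so every edited library was above the wild-type one. HOXD12 measured 1.18 CPM in wild type and 0.519, 1.03 and 0.915 in MITFKO, a difference that was not called (adjusted p = 0.682). HOXA11, a gene of the limb and the uterus, measured 0.549, 1.02 and 0.514 CPM in A375 wild type and 1.13, 2.06 and 0.707 in TFE3KO. The groups of HOXA11 overlapped and it was not called (adjusted p = 0.108), although it was without A375 TFE3KO replicate 3 (0.0468). Here and below, called means a Benjamini-Hochberg adjusted p under 0.05 over all genes of the comparison in the quasi-likelihood F-test of edgeR.

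Compared per length of exon, the most abundant HOX transcripts of SKMEL28 wild type were HOXB7 (21.2 CPM per kb), a gene long studied in melanoma, HOXB2 (20.7), HOXD13 (13.2), HOXD8 (11.4) and HOXC10 (10.8). In A375 wild type they were HOXB2 (27.8), HOXC10 (24.3), HOXB7 (17), HOXC13 (10.6) and HOXC9 (9.4). HOXB2, HOXB7 and HOXC10 were among the 5 most abundant in both. In MITFKO only HOXB2 (37.9) and HOXB7 (27.4) were above HOXB9, at 25.4 CPM per kb.

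**Figure D2:**
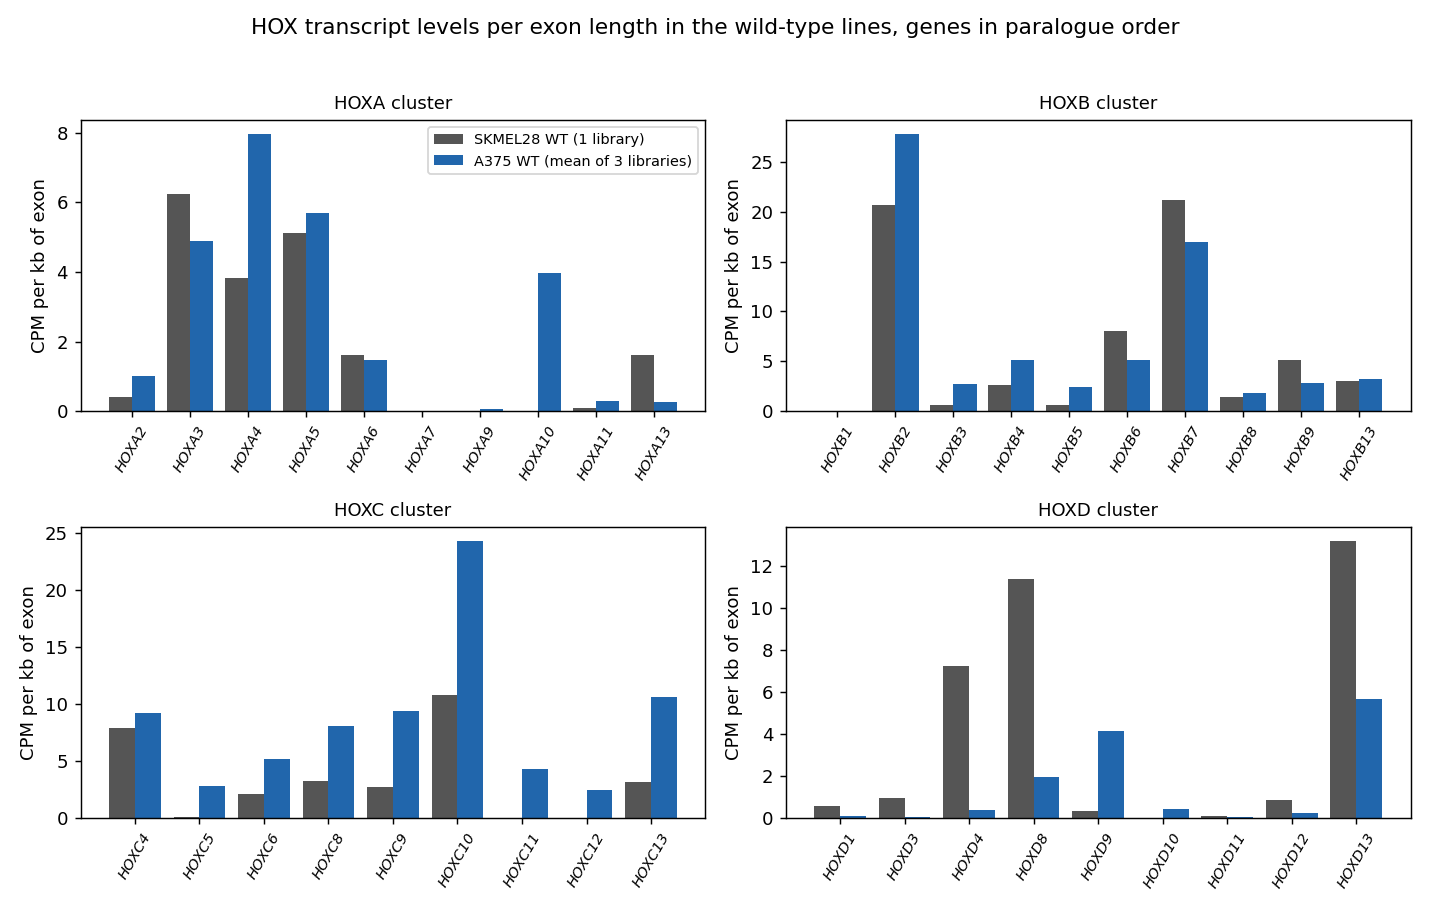
Bars give CPM per kb of exon of the HOX genes in wild-type SKMEL28 (grey, 1 library) and wild-type A375 (blue, mean of 3 libraries), 1 panel per cluster with genes in paralogue order; each panel has its own scale from 0. HOXC bars are taller in A375 for all 9 genes (8 called), while HOXD4, HOXD8 and HOXD13 are taller in SKMEL28 and HOXD9 in A375.

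Between the wild-type lines, A375 had more transcript of most HOXC genes and less of most HOXD genes than SKMEL28. The joint fit of 16 libraries tested 36 HOX genes and called 16 higher in A375, against 34.1% of all 16248 genes tested, and 9 lower, against 33.6%. Either way, 69.4% of the HOX genes and 67.6% of all genes were called, so the share was near the background. Of the 9 HOXC genes 8 were higher, all but HOXC4 (0.25 ± 0.19 SE, adjusted p = 0.242), while HOXD had 5 lower and 2 higher of 9. Among the HOXC genes abundant in both lines, the log2 fold changes were 1.31 for HOXC6, 1.34 for HOXC8, 1.82 for HOXC9, 1.21 for HOXC10 and 1.76 for HOXC13. SKMEL28 wild type is 1 library, whose spread was taken from the other groups.

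HOXC11 and HOXA10, posterior genes used in the hind body, had no count in any SKMEL28 library, nor had HOXA9 and HOXB1, among 199292700 counts in all. A count of 0 there allows up to 0.0155 CPM, counting error only. HOXA10 measured 11.8, 12.2 and 13.7 CPM in the A375 wild-type libraries, at least 99.3-fold higher than the lone SKMEL28 wild-type library, whose floor is 3 counts. HOXC11 measured 11.99, 15.2 and 14.8 CPM, at least 111-fold higher. HOXC12 measured 7.14, 6.91 and 10.3 CPM, at least 64.1-fold higher, and had 3 counts over all 10 SKMEL28 libraries. All 3 were separated between lines in every library. HOXC5 had 391 counts in A375 wild type and 3 in SKMEL28 wild type, a ratio after scaling of 47.7 with a 95% counting interval of 16.2 to 232. HOXD10 had 59 and 1 counts, a ratio of 21.6 (3.73 to 867). The HOXA9 values near 0 in both lines are uncertain, because the count tables also hold a HOXA10-HOXA9 read-through gene, which had 0 counts in all 16 libraries. HOXC4, HOXC5 and HOXC6 share exons (21.3%, 14.4% and 14.9% of their exon bases overlap another counted gene), and how shared reads were handled is not given in the sources used here.

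In HOXD the lines parted within the cluster. HOXD4 measured 10.6 CPM in the SKMEL28 wild-type library and 0.366, 0.556 and 0.747 in A375 (log2 fold change, A375 over SKMEL28, -4.20 ± 0.32 SE, adjusted p = 5.3e-13). HOXD8 measured 30.1 and 4.12, 5.56 and 5.74 CPM (-2.51 ± 0.15 SE, adjusted p = 1.14e-15). Both were below the SKMEL28 library in every A375 library. HOXD13, which shapes the digits, measured 29.6 and 14, 11.03 and 13.2 CPM (-1.17 ± 0.16 SE, adjusted p = 8.87e-08). HOXD9, which lies next to HOXD8, went the other way, at 0.674 CPM in SKMEL28 and 7.18, 6.86 and 9.29 in A375 (3.55 ± 0.43 SE, adjusted p = 1.41e-08). The remaining HOXD calls were HOXD1 and HOXD3, lower, and HOXD10, higher. The 1056 genes tested on chromosome 2, which carries HOXD, had a median log2 fold change of -0.81 in this comparison, against 0.27 for the 822 on chromosome 12 (HOXC), 0.14 for the 911 on chromosome 17 (HOXB) and -0.12 for the 760 on chromosome 7 (HOXA), and the part of this shift in the HOXD values was not tested.

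In HOXA and HOXB the wild-type lines differed gene by gene. HOXA13 measured 8.05 CPM in SKMEL28 and 0.732, 1.81 and 1.26 in A375 (-2.62 ± 0.31 SE, adjusted p = 2.61e-08). HOXA4 measured 6.70 and 14.6, 12.8 and 14.4 CPM (1.09 ± 0.22 SE, adjusted p = 5.43e-05). HOXB3 measured 4.05 and 17.5, 17.7 and 16.5 CPM (2.13 ± 0.27 SE, adjusted p = 3.3e-08). In each of these the A375 libraries lay on 1 side of the SKMEL28 library. HOXB2, HOXB4 and HOXB5 were also higher in A375, with log2 fold changes of 0.47, 0.98 and 2.07, and HOXB6, HOXB7 and HOXB9 lower, with -0.62, -0.28 and -0.83. The HOXB7 call (adjusted p = 0.0418) ended with DESeq2 (0.0828), with RLE scaling (0.0818), and without clone 3 replicate 1 (0.0517) or A375 wild-type replicate 1 or 2 (0.0703 and 0.105).

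The first editing comparison set SKMEL28 libraries labelled MITFKO against the wild-type library. HOX transcripts were higher in MITFKO along all 4 clusters: of 31 HOX genes tested, 18 rose and none fell. Among all 14605 genes tested 25.2% rose and 23.4% fell, or 48.6% either way, against 58.1% of the HOX genes. The median log2 fold change was 0.80 for the HOX genes and 0.01 for all genes tested. HOXA had 5 of 7 tested genes higher, HOXB 5 of 9, HOXC 5 of 6 and HOXD 3 of 9. The absence of falls came from edgeR, and 0 HOX genes were lower with an unadjusted p under 0.05 or with DESeq2. The comparison rests on 1 wild-type library. The summed level of the melanocyte markers also differed, at 13900 CPM in wild type and 5170 to 5370 in MITFKO, and its part in the HOX values was not tested. Of the 8 markers 5 were lower and 1 higher. MLANA had the largest fold change (759 to 3.20 ± 0.619 CPM), and PMEL, the most abundant, went from 10730 to 3354 ± 100.4 CPM. HOX transcripts are richer in G and C (median 55.7%, against 49.6% over the matched symbols), and fold changes rose with GC content across 13881 genes (Spearman's rho 0.232). With that trend removed the HOX median was 0.71. The 18 called genes, which had been picked for values above 0, then ran from 0.39 to 2.35.

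HOXB9, a gene of the thoracic region, had the clearest rise. It measured 13.2 CPM in wild type and 64.95, 65.4 and 65.99 in MITFKO (log2 fold change, MITFKO over wild type, 2.36 ± 0.14 SE, adjusted p = 4.12e-12), with the MITFKO libraries close together. HOXD1, used in pain-sensing neurons, measured 1.18 and 6.33, 6.62 and 5.85 CPM (2.45 ± 0.34 SE, adjusted p = 3.34e-06). HOXD9, whose levels are given above, rose by 2.26 on the log2 scale (SE 0.51, adjusted p = 0.000826). These 3 genes rose more than 4-fold, and no other tested HOX gene that was called exceeded 2.30-fold.

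The next rises were spread over the clusters. HOXC8, a trunk gene, measured 6.20 CPM in wild type and 14.6, 13.03 and 13.8 in MITFKO (1.20 ± 0.26 SE, adjusted p = 0.000476). HOXA4 measured 6.70 and 14.1, 13.03 and 15.2 CPM (1.12 ± 0.24 SE, adjusted p = 0.000532). HOXA13, which shapes hands, feet and the genital tract, measured 8.05 and 17.1, 15.5 and 17.7 CPM (1.11 ± 0.27 SE, adjusted p = 0.00257). All MITFKO libraries were above the wild-type one for each. HOXD3 measured 2.44 and 5.19, 5.07 and 4.73 CPM (1.08 ± 0.35 SE, adjusted p = 0.0144). HOXC13, a gene of hair and nail, measured 7.75 and 15.9, 14.6 and 14.1 CPM (0.99 ± 0.21 SE, adjusted p = 0.000383). HOXB2, which patterns the hindbrain, measured 32.3 and 53.9, 63.6 and 59.9 CPM (0.92 ± 0.12 SE, adjusted p = 2.19e-06).

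The smaller rises were of HOXB6 (0.88), HOXC9 (0.87), HOXA5 (0.81), HOXB13 (0.76), HOXC6 (0.74), HOXC10 (0.59), HOXA3 (0.47) and HOXB7 (0.42), all log2 fold changes. Among these, the HOXA3 call (adjusted p = 0.0147) ended without MITFKO replicate 2 or 3 (0.0507 and 0.0506). HOXD13, HOXC4 and HOXD4 were not called, with log2 fold changes of 0.14 ± 0.16 SE, -0.082 ± 0.21 SE and -0.064 ± 0.20 SE. HOXA6, HOXB3, HOXB4, HOXB5, HOXB8 and HOXD8 were above wild type without a call, at 0.80, 0.51, 0.36, 1.07, 0.73 and 0.28. HOXA2, HOXD10, HOXD11 and HOXD12 were tested near or below 1 CPM and were not called.

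**Figure D3:**
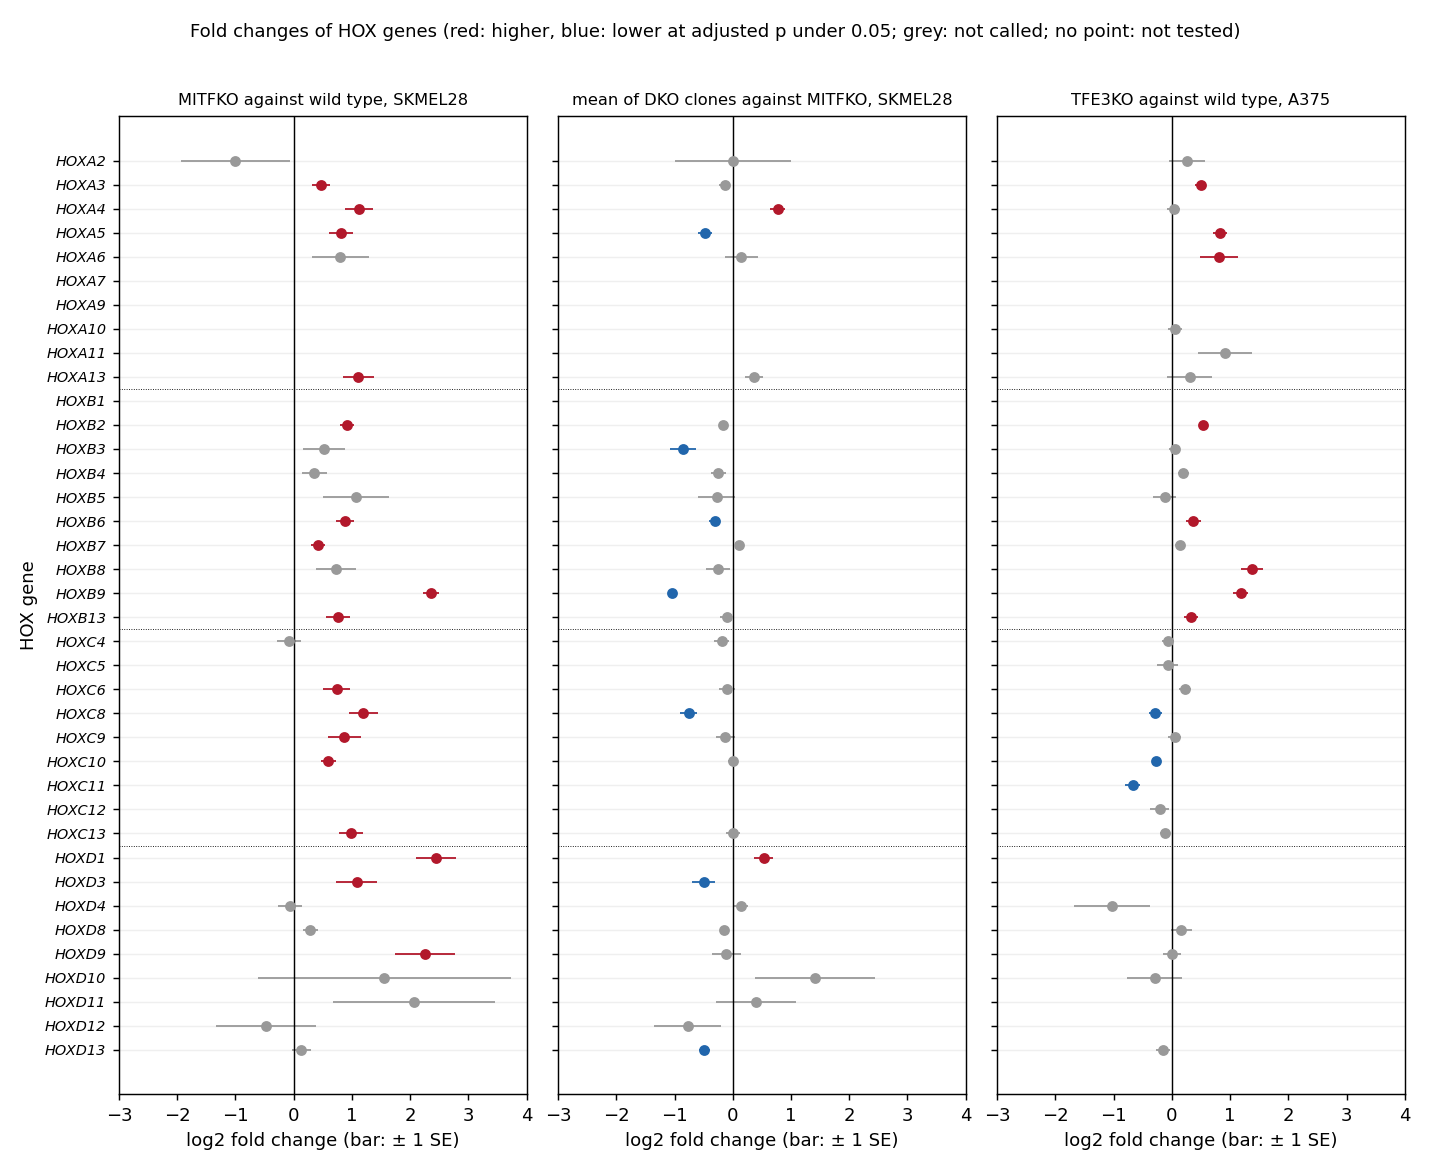
Points are log2 fold changes of the tested HOX genes with bars of 1 standard error, for MITFKO against wild type, the mean of the DKO clones against MITFKO, and A375 TFE3KO against wild type; red is called higher, blue called lower, grey not called, and genes without a point were not tested. The first panel holds red and grey points and no blue one, the second holds 2 red points and more blue ones, and the third 8 red, in HOXA and HOXB, and 3 blue, in HOXC.

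The next comparisons set the DKO clones against MITFKO, their control. They share the MITFKO libraries with each other and with the comparison above, so a high MITFKO value enters all of them. HOX genes were called in both directions here: HOXB9 and HOXC8 were lower in both clones and HOXA4 higher in both. In clone 3, 2 of 31 tested HOX genes were higher (18.2% of all genes tested) and 6 lower (17.6%). In clone 13, 3 were higher (20.5%) and 7 lower (20.2%). For the mean of both clones 2 were higher (20.4%) and 8 lower (20.7%), with 41.1% of all genes tested called either way. The shares of HOX genes called either way, 25.8% in clone 3 and 32.3% in clone 13, were below those of all genes tested, 35.9% and 40.7%. Median log2 fold changes were -0.16 in clone 3 and -0.17 in clone 13, against -0.01 and -0.02 over all genes tested. Single libraries weighed on these counts: clone 3 had 1 gene higher without MITFKO replicate 1, 2 or 3, 0 higher without clone 3 replicate 2, and 3 lower without MITFKO replicate 2 or 3, clone 13 had 1 higher without MITFKO replicate 2, and the mean had 1 higher without MITFKO replicate 3. Values that were not called ran from -0.88 ± 0.70 SE (HOXD12) to 1.41 ± 1.16 SE (HOXD10) in clone 3 and from -0.67 ± 0.68 SE (HOXD12) to 1.44 ± 1.14 SE (HOXD10) in clone 13.

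HOXB9 measured 29.9, 29.5 and 26.8 CPM in clone 3 and 35.4, 36.9 and 32.4 in clone 13, so every DKO library lay below the MITFKO libraries and above the 13.2 CPM of wild type. Its log2 fold change over MITFKO was -1.19 in clone 3 (SE 0.085, adjusted p = 5.42e-10) and -0.91 in clone 13 (SE 0.083, adjusted p = 1.55e-08). None of the alternatives tried ended either call. HOXC8 measured 7.46, 6.30 and 8.96 CPM in clone 3 (-0.87 ± 0.17 SE, adjusted p = 0.000423) and 9.26, 6.64 and 10.7 in clone 13 (-0.64 ± 0.17 SE, adjusted p = 0.00423), again below every MITFKO library.

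HOXD13 measured 27.3, 36.8 and 30.2 CPM in MITFKO, 25.8, 23.3 and 21.2 in clone 3 (-0.42 ± 0.11 SE, adjusted p = 0.00535) and 21.04, 19.9 and 23.2 in clone 13 (-0.56 ± 0.11 SE, adjusted p = 0.000414). The clone 3 call of HOXD13 ended without MITFKO replicate 2 (0.0642). All 6 DKO libraries were below all MITFKO libraries.

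A few genes were lower in 1 clone by the test. HOXA5, needed for lung development, measured 14.96, 12.8 and 15.4 CPM in MITFKO and 10.5, 8.51 and 9.53 in clone 13 (-0.60 ± 0.14 SE, adjusted p = 0.00179), with 11.4, 12.7 and 10.02 in clone 3 (adjusted p = 0.0654). HOXB3 measured 5.66, 5.63 and 5.49 CPM in MITFKO and 1.67, 3.79 and 2.56 in clone 13 (-1.06 ± 0.26 SE, adjusted p = 0.00251), with 2.77, 4.03 and 3.95 in clone 3 (adjusted p = 0.0555). HOXB6 was lower in clone 13 (-0.38 ± 0.10 SE, adjusted p = 0.00505) and not called in clone 3 (adjusted p = 0.0709). Without replicate 2 of both clones the clone 3 values of HOXA5, HOXB3 and HOXB6 were called (adjusted p = 0.0184, 0.0166 and 0.0174), and the count of HOX genes lower in clone 3 was 11 in place of 6. HOXA3 (-0.33 ± 0.11 SE, adjusted p = 0.0212) and HOXB2 (-0.22 ± 0.084 SE, adjusted p = 0.0438) were lower in clone 3 by calls that rested on single libraries. The HOXA3 call ended without MITFKO replicate 2 or 3 (0.0957 and 0.0948) or clone 3 replicate 3 (0.112). The HOXB2 call ended with DESeq2 (0.0579) and without MITFKO replicate 2 or 3 (0.192 and 0.101) or clone 3 replicate 1 or 2 (0.224 and 0.0633).

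HOXA4 measured 17.4, 22.3 and 17.2 CPM in clone 3 (0.42 ± 0.15 SE, adjusted p = 0.0345) and 26.04, 38.6 and 27.5 in clone 13 (1.12 ± 0.15 SE, adjusted p = 4.14e-06), above the 13.0 to 15.3 CPM of MITFKO in every library. The clone 3 call ended without MITFKO replicate 1, 2 or 3 (0.0965, 0.137 and 0.0527) or clone 3 replicate 2 (0.188), and without replicate 2 of both clones (0.0657). HOXA13 measured 22.2, 31.1 and 21.2 CPM in clone 13 (0.57 ± 0.17 SE, adjusted p = 0.0131) and 20.5, 22.3 and 13.8 in clone 3, where it overlapped MITFKO (adjusted p = 0.501). The clone 13 call ended without MITFKO replicate 2 (0.0597). HOXD1 measured 9.83, 12.9 and 7.72 CPM in clone 3 (0.69 ± 0.18 SE, adjusted p = 0.00534) and 7.59, 8.12 and 8.55 in clone 13 (adjusted p = 0.121), above every MITFKO library in both. The clone 3 call of HOXD1 ended without clone 3 replicate 2 (0.0637). HOXB7 was higher in clone 13 (0.25 ± 0.085 SE, adjusted p = 0.0203), a call that ended without MITFKO replicate 1, 2 or 3 (0.0508, 0.07 and 0.0523) or clone 13 replicate 3 (0.0696).

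For the mean of both clones, the called genes were HOXA4 and HOXD1, higher, and, among those lower, HOXA5, HOXB3, HOXB6, HOXB9, HOXC8, HOXD3 and HOXD13. The HOXD3 value (-0.50 ± 0.20 SE, adjusted p = 0.0491) lost its call with DESeq2 (0.0677), RLE scaling (0.0527), no filter on low counts (0.0657) and the replicate block (0.0508), and without MITFKO replicate 1, 2 or 3, clone 3 replicate 1 or 3 or clone 13 replicate 2 (adjusted p from 0.0736 to 0.148). The HOXD1 value (0.53 ± 0.16 SE, adjusted p = 0.0119) lost it without MITFKO replicate 3 (0.0645). The summed level of 8 fibroblast markers was 49.7 to 59.1 CPM in MITFKO, 102 to 106 in clone 3 and 76.3 to 85.6 in clone 13. Only LUM and DCN of the 8 were at 1 CPM or more, and the collagen genes COL1A1, COL1A2 and COL3A1 were below 1 CPM and DPT at 0 in all SKMEL28 groups. The melanocyte sum was 5170 to 5370 CPM in MITFKO, 5490 to 6220 in clone 3 and 6240 to 7970 in clone 13. In the mean of the clones 3 of these 8 markers were higher, among them MITF (log2 fold change 0.73), and 2 lower, PAX3 (-0.52) and DCT (-0.37). Both keratinocyte markers tested were higher in the mean of the clones, KRT14 (log2 fold change 1.43) and KRT10 (0.41), with KRT1 and DSG3 below 1 CPM, and the endothelial VWF was lower (-1.20). The part of these markers in the HOX values was not tested. In these bulk cultures fewer cells with a transcript and less transcript in each cell cannot be told apart.

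**Figure D4:**
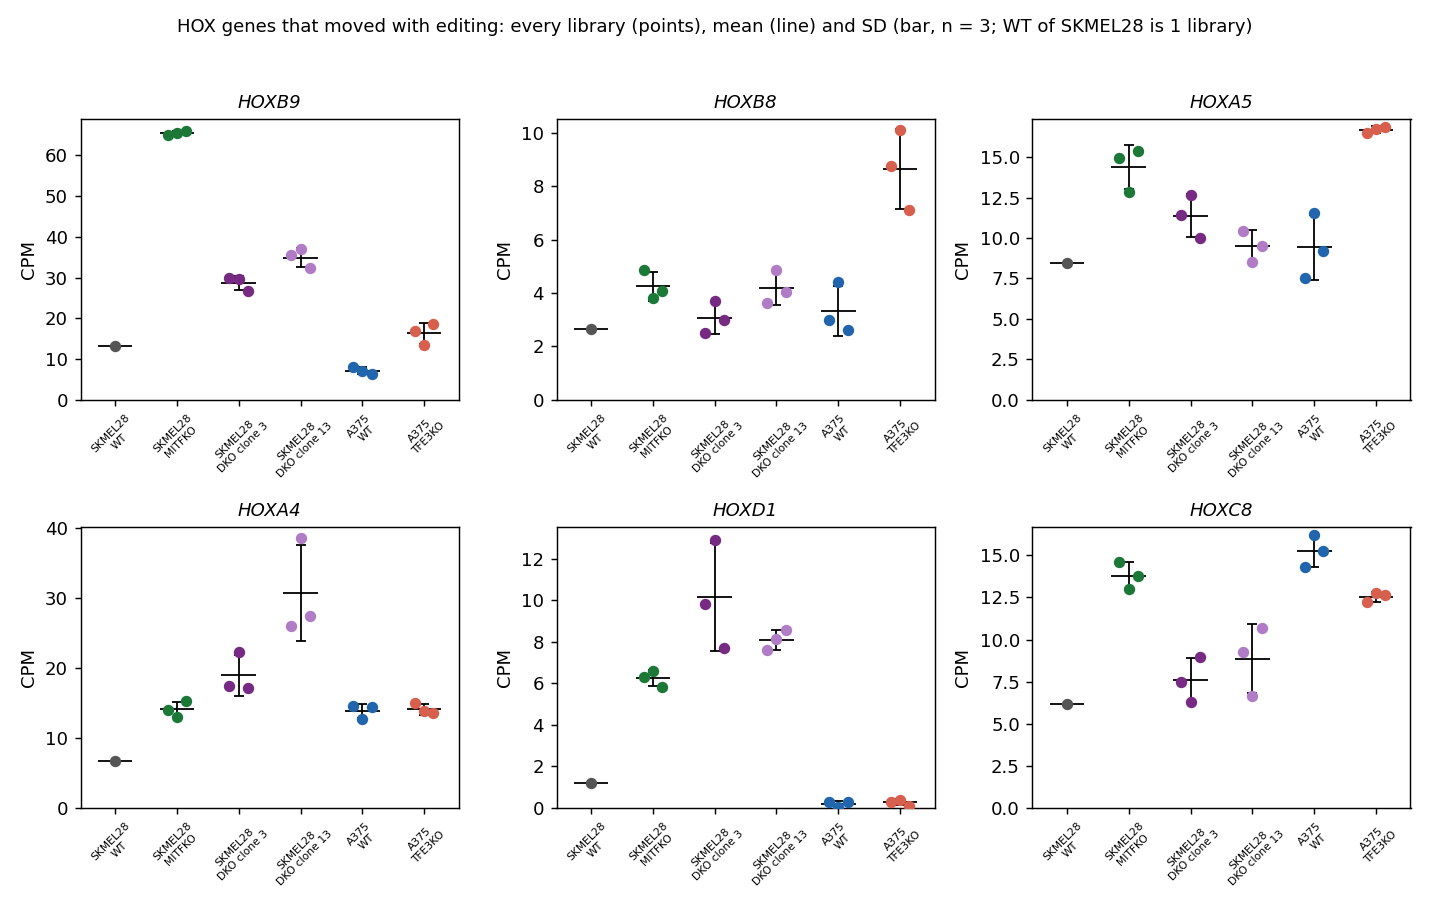
Each point is the CPM of 1 library in the 6 groups for HOXB9, HOXB8, HOXA5, HOXA4, HOXD1 and HOXC8, with the group mean as a line and the SD as a bar (n = 3, except the lone SKMEL28 wild-type library); axes start at 0 and differ between panels. HOXB9 in MITFKO, near 65 CPM, stands above all other groups, and HOXB8 is highest in A375 TFE3KO.

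Clone 13 set directly against clone 3 had 5 of 31 HOX genes higher (14.3% of all genes tested) and 0 lower (13.4%), or 16.1% either way against 27.6% of all genes. In edgeR 1 HOX gene, HOXD9, was lower at an unadjusted p under 0.05, and DESeq2 called 0 lower. Without clone 13 replicate 2, HOXB3 (adjusted p = 0.0467) and HOXD9 (0.0432) were called lower. HOXA4 (0.70 ± 0.14 SE, adjusted p = 0.00114) differed most among the called genes. HOXA3 measured 35.4, 29.1 and 31.5 CPM in clone 13 and 25.6, 25.9 and 22.3 in clone 3 (0.38 ± 0.11 SE, adjusted p = 0.0107), without overlap. HOXB7 (0.29 ± 0.086 SE, adjusted p = 0.0159), HOXB9 (0.28 ± 0.086 SE, adjusted p = 0.0169) and HOXC10 (0.33 ± 0.090 SE, adjusted p = 0.00878) were also higher in clone 13. Without clone 3 replicate 3 the HOXA3, HOXB7 and HOXB9 calls ended (adjusted p = 0.0704, 0.0963 and 0.0904), which leaves 2 genes higher, and HOXB7 also without clone 13 replicate 3 (0.0536). With the replicate number as a block over the clones and MITFKO, HOXA13 was called too (log2 fold change 0.41, adjusted p = 0.0319).

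In A375, TFE3KO was set against wild type. The called rises lay in HOXA and HOXB and the called falls in HOXC, and no test compared the clusters. Of 32 HOX genes tested 8 were higher, against 21.3% of all 14012 genes, and 3 lower, against 22.0%. Either way, 34.4% of the HOX genes and 43.3% of all genes were called. HOXA had 3 of 9 tested genes higher, HOXB 5 of 9 higher, HOXC 3 of 9 lower, and of the 5 tested HOXD genes edgeR called 0, 0 at an unadjusted p under 0.05, and DESeq2 0. The median log2 fold change over the HOX genes was 0.05, and 0.0033 over all genes. Values that were not called ran from -1.03 ± 0.65 SE (HOXD4) to 0.91 ± 0.46 SE (HOXA11). Without A375 TFE3KO replicate 1 the genes higher numbered 5. The summed level of 6 leukocyte and endothelium markers was 3.94 to 4.25 CPM in wild type and 9.95 to 11.9 in TFE3KO, carried by LYZ with PTPRC at 0. The melanocyte sum was 536 to 565 CPM in wild type and 796 to 863 in TFE3KO, with SOX10 higher (log2 fold change 0.65) and MITF lower (-0.94). The fibroblast sum was 22.7 to 26.5 and 16.6 to 20.8 CPM, with COL1A1 (-1.51) and TWIST2 (-0.70) lower. Of the 5 fibroblast markers tested 0 were called higher. DCN went the other way without a call, from 0.183, 0.788 and 0.467 to 1.28, 1.12 and 0.816 CPM. The keratinocyte sum was 64.8 to 68.3 and 64.6 to 79.9 CPM. The part of these markers in the HOX values was not tested.

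HOXB8 and HOXB9, neighbours in the trunk part of HOXB, rose most. HOXB8 measured 2.97, 4.40 and 2.62 CPM in wild type and 8.74, 10.1 and 7.13 in TFE3KO (1.38 ± 0.19 SE, adjusted p = 1.8e-08). HOXB9 measured 8.10, 7.09 and 6.35 and 16.9, 13.5 and 18.5 CPM (1.18 ± 0.13 SE, adjusted p = 1.13e-10). HOXB2 measured 40.6, 45.05 and 44.7 and 65.6, 63.4 and 59.9 CPM (0.54 ± 0.063 SE, adjusted p = 2.85e-10). In all 3 the groups did not overlap. HOXB6 (0.37 ± 0.12 SE, adjusted p = 0.0131) and HOXB13 (0.33 ± 0.12 SE, adjusted p = 0.0231), a prostate gene, rose less. The HOXB6 call ended without A375 wild-type replicate 3 (0.0648) or A375 TFE3KO replicate 1 (0.0711), and the HOXB13 call without A375 wild-type replicate 1 or 3 (0.106 and 0.0706) or A375 TFE3KO replicate 1 (0.151).

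In HOXA, HOXA5 measured 7.55, 11.5 and 9.20 CPM in wild type and 16.5, 16.8 and 16.9 in TFE3KO (0.83 ± 0.12 SE, adjusted p = 2.26e-07), with the TFE3KO libraries close together and above all wild-type ones. HOXA3 measured 18.5, 18.6 and 16.7 and 23.9, 26.2 and 25.5 CPM (0.49 ± 0.092 SE, adjusted p = 1.34e-05), also without overlap. HOXA6 measured 1.05, 1.02 and 2.29 and 2.63, 2.82 and 2.18 CPM (0.81 ± 0.33 SE, adjusted p = 0.0398). Its groups overlapped, and the call ended with DESeq2 (0.0564) and without A375 wild-type replicate 1 or 2 (0.163 and 0.159) or A375 TFE3KO replicate 1 or 2 (0.0901 and 0.124). HOXA4, called higher in the DKO clones, measured 15.04, 13.8 and 13.6 CPM against 14.6, 12.8 and 14.4 in wild type (0.029 ± 0.11 SE, adjusted p = 0.865).

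In HOXC, HOXC11 measured 11.99, 15.2 and 14.8 CPM in wild type and 8.62, 8.40 and 9.30 in TFE3KO (-0.67 ± 0.13 SE, adjusted p = 1.65e-05). HOXC10, a gene of the lumbar region, measured 46.04, 48.02 and 47.1 and 37.2, 42.5 and 37.5 CPM (-0.27 ± 0.068 SE, adjusted p = 0.00111). Neither pair of groups overlapped. HOXC8 measured 14.3, 16.2 and 15.3 and 12.2, 12.7 and 12.6 CPM (-0.28 ± 0.11 SE, adjusted p = 0.0356). HOXC6 (0.23 ± 0.10 SE, adjusted p = 0.0666) was not called, but was called higher without A375 wild-type replicate 3 (0.032) or TFE3KO replicate 3 (0.0375). The HOXC8 call ended with no filter on low counts (0.0516) and without A375 wild-type replicate 2 or 3 (0.13 and 0.0705) or A375 TFE3KO replicate 1, 2 or 3 (0.107, 0.0624 and 0.0533).

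The effect of TFE3 editing in SKMEL28 (mean of the DKO clones minus MITFKO) was then set against that in A375 (TFE3KO minus wild type) as an interaction in the joint fit. Of 36 HOX genes tested, 2 had a higher effect in SKMEL28 (16.5% of all 16248 genes) and 8 a lower one (18.3%). Either way, 27.8% of the HOX genes and 34.7% of all genes were called. Of the 9 tested HOXB genes 6 had a lower effect in SKMEL28. HOXB9 had the widest gap, with a log2 difference of -2.23 (SE 0.14, adjusted p = 9.84e-14): TFE3 editing came with less HOXB9 in SKMEL28 and more in A375. HOXB8 (-1.63 ± 0.30 SE, adjusted p = 5.84e-05) and HOXA5 (-1.30 ± 0.19 SE, adjusted p = 2e-06) followed. HOXB3 (-0.89), HOXB2 (-0.71), HOXB6 (-0.68) and HOXA3 (-0.63) also differed, and HOXA4 had the higher effect in SKMEL28 (0.75 ± 0.18 SE, adjusted p = 0.00168). HOXB4 (-0.44, adjusted p = 0.0353) and HOXC10 (0.27, adjusted p = 0.0499) were called narrowly. The HOXB4 call ended with RLE scaling (0.0534) and without MITFKO replicate 1 or 2, clone 3 replicate 1 or 3, clone 13 replicate 1, A375 wild-type replicate 1 or A375 TFE3KO replicate 1 or 2 (adjusted p from 0.0521 to 0.113). The HOXC10 call ended with no filter on low counts (0.093) and without MITFKO replicate 2 or 3, clone 3 replicate 2, clone 13 replicate 1 or 3, A375 wild-type replicate 1, 2 or 3 or A375 TFE3KO replicate 1 or 3 (adjusted p from 0.0503 to 0.131), and 1 gene then had a higher effect, except with no filter, without A375 wild-type replicate 1 or without TFE3KO replicate 3, where HOXD4 was called in its place (0.0371, 0.0308 and 0.00312). Line, medium, the MITF edit and the clones differ between the lines at once, so these cannot be told apart in the gap.

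**Figure D5:**
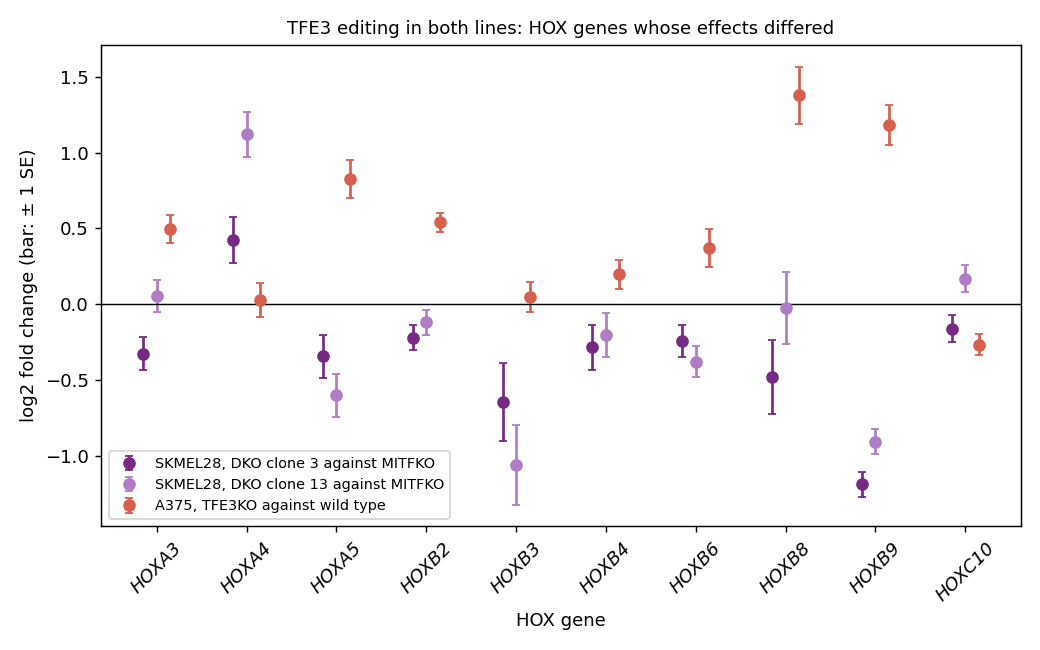
For the 10 HOX genes whose TFE3 effect differed between lines, points give the log2 fold change of each DKO clone against MITFKO (a pair of purple shades) and of A375 TFE3KO against wild type (red), with bars of 1 standard error. HOXB9 lies near -1 in both clones and above 1 in A375, and HOXA4 is above 0 in both clones and near 0 in A375.

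Summed over a cluster, HOXB held the most HOX transcript in every group but A375 wild type. The sums in SKMEL28 wild type were 55.9 CPM for HOXA, 119 for HOXB, 64.2 for HOXC and 75.8 for HOXD. In MITFKO HOXB summed to 232 ± 6.02 CPM (SD, n = 3), HOXA to 90.1 ± 4.07, HOXC to 94.5 ± 1.99 and HOXD to 92.5 ± 6.55. All 4 sums were above wild type in every MITFKO library. In clone 3 HOXB summed to 176 ± 8.54 CPM and in clone 13 to 192 ± 4.05, below MITFKO in every library. Of these HOXB sums HOXB9 alone held 13.2 CPM in wild type, 65.4 in MITFKO, 28.7 in clone 3 and 34.9 in clone 13. HOXB7 went the other way in clone 13, from 37.6 CPM in MITFKO to 44.9. In A375 HOXC led in wild type, at 168 ± 9.41 CPM, beside 140 ± 4.95 for HOXB, 64.7 ± 2.68 for HOXA and 27.9 ± 2.30 for HOXD. In TFE3KO HOXB stood above HOXC in every library, at 185 ± 4.23 CPM against 151 ± 6.68 for HOXC. These sums are descriptions and were not tested.

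Genes that act with or on HOX genes were counted on lists chosen with earlier results of these data known, and each count is to be read against the share of all genes called. That share was 25.2% higher and 23.4% lower in MITFKO, 20.4% and 20.7% in the DKO mean, and 21.3% and 22.0% in A375 TFE3KO. The all-gene median log2 fold changes were 0.0149, -0.0127 and 0.0033. No list was tested as a set. Of 8 tested TALE cofactors 2 were higher and 1 lower in MITFKO than in wild type, both under the shares of all genes. PKNOX2 was lower, from 72.0 to 17.8 ± 2.64 CPM (log2 fold change -1.97, adjusted p = 9.94e-07), and PBX3 and MEIS3 were higher (0.56 and 2.62). In the DKO mean only PBX4 was called, lower, from 8.71 ± 0.554 CPM in MITFKO to 2.46 ± 0.436 in clone 3 and 3.92 ± 0.713 in clone 13. In A375 TFE3KO 2 of 9 were higher, PKNOX2 from 1.70 ± 0.343 to 9.53 ± 0.819 CPM (2.49, adjusted p = 1.42e-15) and MEIS3 (0.97).

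The Trithorax list, with the MLL methyltransferases and the H3K27 demethylases, had 11 genes higher and 2 lower of 16 in MITFKO, and 0 higher and 9 lower in the DKO mean. KDM6B, which removes the Polycomb mark H3K27me3, measured 21.7 CPM in wild type, 125 ± 5.90 in MITFKO, 72.9 ± 3.23 in clone 3 and 71.5 ± 13.96 in clone 13 (log2 fold changes 2.58 in MITFKO and -0.79 in the DKO mean). DOT1L and KMT2C rose in MITFKO (1.14 and 1.02), and KMT2A and KMT2D fell in the DKO mean (-0.64 and -0.54). In A375 TFE3KO 4 of 16 were higher and 1 lower, led by ASH2L (0.69). Of 12 tested PRC2 genes 2 were higher and 6 lower in MITFKO. Among the lower ones was EZH2, an H3K27 methyltransferase, from 94.1 to 44.2 ± 2.10 CPM (-1.04, adjusted p = 1.68e-07). EZH1, on the same list, was higher, from 21.1 to 36.0 ± 2.03 CPM (0.82, adjusted p = 3.61e-05). In the DKO mean 2 PRC2 genes were higher and 4 lower, with EZH1 lower (-0.68). In A375 TFE3KO 4 were higher and 2 lower, with EZH2 higher there (0.26). Of 19 tested PRC1 genes 7 were higher and 4 lower in MITFKO, 2 and 8 in the DKO mean, and 3 and 4 in A375 TFE3KO, where both shares were near or under those of all genes. The median log2 fold change of the Trithorax list was 0.49 in MITFKO, -0.21 in the DKO mean and 0.03 in A375 TFE3KO, and that of the PRC2 list -0.29, -0.12 and -0.03.

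Retinoic acid switches on HOX genes through RAR and RXR receptors. Of 9 tested genes of this list 4 were higher and 1 lower in MITFKO, with RARA from 16.7 to 68.9 ± 3.91 CPM (2.09, adjusted p = 4.1e-11), RARG higher (1.79) and ALDH1A3, which makes retinoic acid, higher (1.75). ALDH1A1, on the same list, went the other way, at 90.3 CPM in wild type and 53.7, 53.0 and 56.8 in MITFKO. In the DKO mean 1 was higher, RXRA (0.28), and 1 lower, RARG (-0.31). In A375 TFE3KO 5 were higher and 1 lower, with RXRG (2.22) and RARB (1.48) among the higher ones. The lower one was ALDH1A1 (-4.99, adjusted p = 2.7e-06), from 1.02 ± 0.486 to 0.0204 ± 0.0353 CPM. Long noncoding RNAs of the HOX clusters were 2 higher and 0 lower of 9 tested in MITFKO. HAGLR, from the HOXD cluster, went from 58.0 to 81.1 ± 4.98 CPM there (0.53, adjusted p = 7.21e-05). HOTAIR, from the HOXC cluster, was at 0 in the SKMEL28 wild-type library and at 1.86 ± 0.611 CPM in A375 wild type. In the DKO mean 1 of 9 of these RNAs was higher and 0 lower. In A375 TFE3KO 2 of 11 were higher, HOXB-AS3 (0.92) among them. The 2 lower ones there were HOTAIR (-0.94) and HOXC13-AS (-0.74). Of 22 tested neighbours of the clusters 9 were higher and 4 lower in MITFKO, with a median log2 fold change of 0.25, against 0.0149 over all genes. In the DKO mean 12 of these 22 were higher and 3 lower (median 0.20), while the HOX median there was -0.14. In A375 TFE3KO 6 of 23 were higher and 3 lower (median 0.08).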

How the data were processed

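RNA-seq was measured in 16 libraries of 6 groups. The deposited values are raw read counts per gene for 28278 symbols, 1 file per library. STAR, featureCounts, DESeq2 and the build hg19 are named in the submitters' processing notes, without versions. The annotation release, the use of strand and the handling of reads that match several genes are not given in the sources used for this work, so overlapping and antisense genes are uncertain (HOXA7 shares 74.7% of its exon bases with HOXA-AS3).

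Low counts were filtered with edgeR's filterByExpr and tested with edgeR 4.0.16 in R 4.3.3 (TMM scaling, robust quasi-likelihood F-test, Benjamini-Hochberg adjustment over all genes, called at an adjusted p under 0.05). One fit held the 10 SKMEL28 libraries (14605 genes), one the 6 A375 libraries (14012) and one all 16 (16248). With 1 SKMEL28 wild-type library, its variation was taken as that of the other groups. The fits were tested on simulated data, where 168 of 200 genes changed 2-fold were called the right way for MITFKO against wild type. In that run 10 unchanged genes were called, and the changed genes had a mean of at least 1 CPM. The simulation gave the wild-type library the spread of the other groups, so it could not check that assumption. DESeq2 1.42.0, RLE scaling, no filter, left-out replicates, a replicate block and other thresholds were the alternatives. Same-numbered replicates exceeded a correlation of deviations of 0.1 only between clone 3 and clone 13 (0.134, 0.365 and 0.143). Even there, clone 3 replicate 3 matched clone 13 replicate 1 best. No libraries were identical. Exon lengths came from GENCODE models on GRCh38 and promoter windows from RefSeq. A value of 0 was bounded by 3 counts, and such bounds and the 95% intervals cover counting error only.

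The members and the other gene lists were chosen with earlier results of these data known. The genes named were all members on in at least 1 group, those called or on in only some groups first, and at most 3 called genes of each other list and comparison, by absolute fold change, with at least 1 CPM in the higher group. ALDH1A1 in MITFKO is given beyond that limit. 1 HOX gene enters the counts, medians and sums, and its own values are not reported here or plotted.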

Additional observations from a re-analysis of the deposited data

Results flagged for a closer look

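By interaction in the joint edgeR fit, the TFE3 effect differed between lines for 10 of 36 HOX genes (27.8%, against 34.7% of all genes). As the effect in SKMEL28 minus that in A375, on the log2 scale, it was -2.23 for HOXB9 (adjusted p = 9.84e-14), -1.63 for HOXB8 (5.84e-05), -1.3 for HOXA5 (2e-06), -0.894 for HOXB3 (0.0027), -0.708 for HOXB2 (1.53e-06), -0.681 for HOXB6 (0.000429), -0.628 for HOXA3 (0.000426), -0.441 for HOXB4 (0.0353), 0.746 for HOXA4 (0.00168) and 0.27 for HOXC10 (0.0499). HOXB9 fell in both DKO clones and rose in A375 TFE3KO. HOXB3 and HOXB4 were not called in A375 (adjusted p = 0.737 and 0.0896). The HOXB4 and HOXC10 interaction calls ended in 9 and 11 of the 19 alternatives.

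The DKO clones differed from each other in 5 of 31 HOX genes tested (16.1%, against 27.6% of all genes). The HOXA3, HOXB7 and HOXB9 calls ended without clone 3 replicate 3. The log2 fold change of clone 13 against clone 3 was 0.702 for HOXA4 (adjusted p = 0.00114), 0.384 for HOXA3 (0.0107), 0.329 for HOXC10 (0.00878), 0.286 for HOXB7 (0.0159) and 0.284 for HOXB9 (0.0169), all higher in clone 13. TFE3 transcript was also higher in clone 13, at 46.8 ± 3.18 CPM against 9.62 ± 1.83 in clone 3 (SD, n = 3), and its part in these differences was not tested.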

How the results depend on the processing

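The 97 called HOX values (a gene in a comparison) were recomputed with DESeq2, RLE scaling, no filter on low counts, other sets of libraries and each replicate left out. Of these 75 stayed called throughout, 22 lost the call at least once, 24 uncalled ones gained it at least once, and 0 reversed. Leaving out 1 replicate gave 0 to 2 HOX genes higher and 3 to 9 lower in clone 3, 1 to 3 higher in clone 13, 1 to 3 higher in the DKO mean, 2 to 6 higher and 0 to 2 lower in clone 13 against clone 3, 5 to 11 higher in A375 TFE3KO and 1 to 3 higher in the interaction. Without replicate 2 of both DKO clones, clone 3 had 1 higher and 11 lower. Removing the GC trend moved the MITFKO median from 0.804 to 0.708. With only wild-type and MITFKO libraries in the fit 21 HOX genes were higher in MITFKO. The number of HOX genes on ran from 23 to 29 in SKMEL28 wild type and from 26 to 32 in A375 wild type over thresholds of 0.5 and 2 CPM and the other definitions. Without TMM scaling, an alternative added after the data were seen, the HOXB sum was 122 CPM in SKMEL28 wild type, 238 in MITFKO, 171 in clone 3 and 174 in clone 13, against 119, 232, 176 and 192.

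With the replicate number as a block, clone 3 had 2 higher and 7 lower, clone 13 had 3 and 7, the DKO mean 3 and 8, clone 13 against clone 3 had 6 and 0, A375 TFE3KO 8 and 3, and the interaction 2 and 9. Across MITFKO and the clones, same-numbered replicates did not deviate together (correlations -0.0626 to 0.0753), nor in A375 (-0.0922 to -0.0073), so those numbers were not treated as pairs in the main fits. The block did treat them so, because it covered the MITFKO and A375 libraries as well. Between the clones all 3 same-numbered pairs exceeded 0.1, but clone 3 replicate 3 matched clone 13 replicate 1 best. In clone 13 against clone 3 the block, which also held MITFKO, added HOXA13 (log2 fold change 0.41, adjusted p = 0.0319).

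Depth limits the genes below about 1 CPM. HOXA2, HOXD10, HOXD11 and HOXD12 had standard errors of 0.86 to 2.17 (log2) in MITFKO against wild type, so changes of several-fold were not detectable there.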
